A study of Homo sapiens with 12 samples.

Results

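The angiopoietin family was described here by 5 genes, ANGPTL4, ANGPT1, ANGPT2, ANGPTL1 and ANGPTL2, out of 4918 genes in the expression table. The genes were taken by symbol, and the family was chosen by measured values of these samples: ANGPTL4 had the largest rise of all 4918 genes with SB-3CT alone, and ANGPT1 had been named for its fall when SB-3CT was added to IFN-γ. The other 3 genes were included by family name. RNA was sequenced from A375, an established human melanoma cell line, in 12 samples, 3 in each of 4 groups. Cells were left without treatment (control) or received SB-3CT, IFN-γ or both for 24 h. SB-3CT is a small-molecule inhibitor of the gelatinases MMP2 and MMP9, and IFN-γ is a cytokine of T cells and natural killer cells. All groups were the same cell line, the doses are not given in the labels, and the treatment note also mentions vehicle, so that whether the control cells received it is not clear from the labels. The labels do not say that the 3 samples of a group came from separate cultures. The legend of the study's figure with these RNA data states that experiments were independently repeated, without naming the sequenced samples. If the samples of a group were not separate cultures, p-values measure only the spread between these samples, which may be technical.

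Angiopoietins are secreted ligands of the receptor tyrosine kinase TIE2 on endothelial cells. ANGPT1 activates the receptor and stabilises vessels, whereas ANGPT2 can oppose it and is released mainly by endothelial cells. The angiopoietin-like proteins share the coiled-coil and fibrinogen-like domains but do not bind TIE2. ANGPTL4 inhibits lipoprotein lipase, is induced in fasting, by fatty acids through PPARs and by hypoxia, and acts on vessel permeability and tumour spread. ANGPTL2 is a secreted proinflammatory protein that has been linked to tumour invasion, and ANGPTL1 is known as an inhibitor of vessel growth. The receptors TEK and TIE1 and the lipase gene LPL were not analysed here, since the table covers symbols from A1BG to FAM46B.

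The promoters of ANGPTL4 and ANGPTL2 are shown because these 2 members had higher levels with IFN-γ than without any treatment, with no overlap, and had a promoter record. Each is the 250 bases before the annotated start, 5′ to 3′ on the strand of the gene, from RefSeq (GRCh38.p14), at chr19:8363905-8364154 (plus strand) for ANGPTL4 and chr9:127122636-127122885 (minus strand) for ANGPTL2. The RefSeq promoter table matched 3 of the 5 members, ANGPTL4, ANGPTL2 and ANGPTL1. It had no match for ANGPT1, which was also higher with IFN-γ than in the controls with no overlap.
ANGPTL4: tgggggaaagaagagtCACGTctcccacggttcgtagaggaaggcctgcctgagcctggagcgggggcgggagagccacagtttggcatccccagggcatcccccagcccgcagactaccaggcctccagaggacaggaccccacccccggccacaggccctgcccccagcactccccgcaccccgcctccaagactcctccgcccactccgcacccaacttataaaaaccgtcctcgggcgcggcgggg
ANGPTL2: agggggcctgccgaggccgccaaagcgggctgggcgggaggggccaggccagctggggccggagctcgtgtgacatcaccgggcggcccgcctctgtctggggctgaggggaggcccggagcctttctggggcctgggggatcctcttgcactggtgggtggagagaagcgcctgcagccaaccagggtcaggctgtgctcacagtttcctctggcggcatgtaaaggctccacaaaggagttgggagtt
Capitals mark the only match to any of 6 motifs that were searched on both strands. It is the hypoxia element core ACGTG, read on the minus strand and so printed as its reverse complement, 234 bases before the start of ANGPTL4. This core occurs in 18.5% of 35116 promoter windows of the same length, and the related core GCGTG, found in 32.2%, had no match in either promoter. Neither promoter held the gamma-activated sequence TTCNNNGAA (6.57% of windows), the interferon element of GAAA repeated with 2 bases between (3.02%), the amino acid response element TGATGNAA (3.14%) or the PPAR element of AGGNCA repeated with 1 base between (0.268%). In the promoter of ANGPTL1, TGATGNAA matched once, 61 bases before the start. ACGTG and GCGTG share their last 4 letters, and a match describes these letters alone.

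In hg19, with exons from GENCODE, ANGPTL4 lies on the plus strand of chromosome 19 (8428173 to 8439254) and its main transcript has 7 exons and 1872 bases. ANGPTL2 lies on the minus strand of chromosome 9 (129849627 to 129884914, 5 exons) and ANGPTL1 on the minus strand of chromosome 1 (178818670 to 178840212, 6 exons). Both sit opposite a RALGPS gene, with no exon bases shared. ANGPT1 (108261710 to 108510283) and ANGPT2 (6357153 to 6420930) are both on the minus strand of chromosome 8 with 9 exons each. ANGPT2 shares 78 exon bases with MCPH1 on the other strand, and since it is not stated that counting used strand, reads there cannot be assigned to either gene. No member shared exon bases with a neighbour in the table.

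The IFN-γ labels matched the chemokine gene CXCL10, which ranged from 0 to 0.05 FPKM without IFN-γ and from 78.7 to 122 with it. FPKM counts fragments relative to transcript length and to all mapped fragments of a sample, and so is already per length. Depth relative to the control mean, read from the steps between the lowest values, was 86.9% to 149.7%. All 9 listed melanoma markers were in the table, 5 or 6 of them above 1 FPKM in each group. They summed to 158 to 160 FPKM in the controls, 135 to 147 with SB-3CT, 144 to 154 with IFN-γ and 105 to 113 with both. Most of the sum was AXL, CSPG4 and ERBB3, which did not move together. Mean AXL was 41.2, 46.8, 56.4 and 42.4 FPKM in that order. CSPG4 was 48.5, 41.9, 37.1 and 27.7, and ERBB3 57.1, 45.5, 43.6 and 30.9. ABCB5, BIRC7 and DCT had group means of at most 0.318 FPKM. Melanoma markers with symbols after FAM46B are not covered. Endothelial markers, of which 8 of 11 were in the table, summed to 48.8 to 49.98, 53.6 to 54.8, 63.7 to 66.8 and 58.4 to 61.5 FPKM in the same order, mainly through ENG, EGFL7 and ESM1, while CDH5, CLDN5, CD34 and CD93 had group means of at most 0.206 FPKM. Fibroblast markers (4 of 5 present) summed to at most 0.646 FPKM, and adipocyte markers (3 of 4 present) to 1.04 to 2.07, mostly CFD. The part of these marker changes in the values below was not tested.

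ANGPTL4 was the member that moved most. Its level was 0.994, 1.11 and 1.06 FPKM in the controls. With SB-3CT it was 5.71, 6.77 and 6.08 FPKM, and with IFN-γ 4.20, 3.87 and 4.24 FPKM. With both agents it was 7.03, 6.44 and 6.33 FPKM. All 9 treated samples were above all controls, and the IFN-γ samples were below those of both SB-3CT groups, which overlapped with each other. The group means were 1.05 ± 0.0602, 6.19 ± 0.539, 4.10 ± 0.204 and 6.60 ± 0.376 FPKM (SD, n = 3) for control, SB-3CT, IFN-γ and both. The order of levels was therefore control, IFN-γ, SB-3CT and both, with the last 2 not separated beyond their spread.

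Added to IFN-γ, SB-3CT raised ANGPTL4 1.61-fold in mean FPKM. This is the only contrast of ANGPTL4 that its choice did not use and that was tested. The change was 0.57 ± 0.08 on the log2(FPKM + 1) scale (SE; 95% interval 0.39 to 0.76; limma, adjusted p = 0.00254), with no overlap between the groups. With median-ratio scaling it was 0.78, and with quantile normalization 0.86. An exact permutation test of 3 against 3 samples cannot give a p below 0.1, which is the value found. In bulk RNA, fewer cells that express a gene and less RNA per cell cannot be told apart, and this holds for every level below. Of 4 members tested in this comparison, 1 was higher and 1 lower, where 6.41% of all genes were called higher and 31.5% lower (37.9% in either direction).

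The remaining changes of ANGPTL4 are descriptions. The rise with SB-3CT alone was 5.87-fold in mean FPKM, or 1.80 on the log2(FPKM + 1) scale, the highest of 4918 genes by that scale, as its choice required. With IFN-γ alone it was 3.89-fold, or 1.31 on the log2(FPKM + 1) scale, which was rank 62 of 4918 from the highest. IFN-γ added to SB-3CT gave 1.07-fold in mean FPKM, or 0.08 on the log2(FPKM + 1) scale. When each sample was scaled by its median ratio, that change was 0.30 and the 2 groups did not overlap, at 5.30 to 6.64 FPKM with SB-3CT and 7.30 to 7.97 with both. Summing the control level and both separate rises gives 9.23 FPKM, and the measured 6.60 FPKM with both agents was 71.5% of that sum. These levels are unscaled, and the share changes with scaling. Scaled by the median ratio, the means were 0.990, 5.94, 3.96 and 7.53 FPKM for control, SB-3CT, IFN-γ and both.

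**Figure D1:**
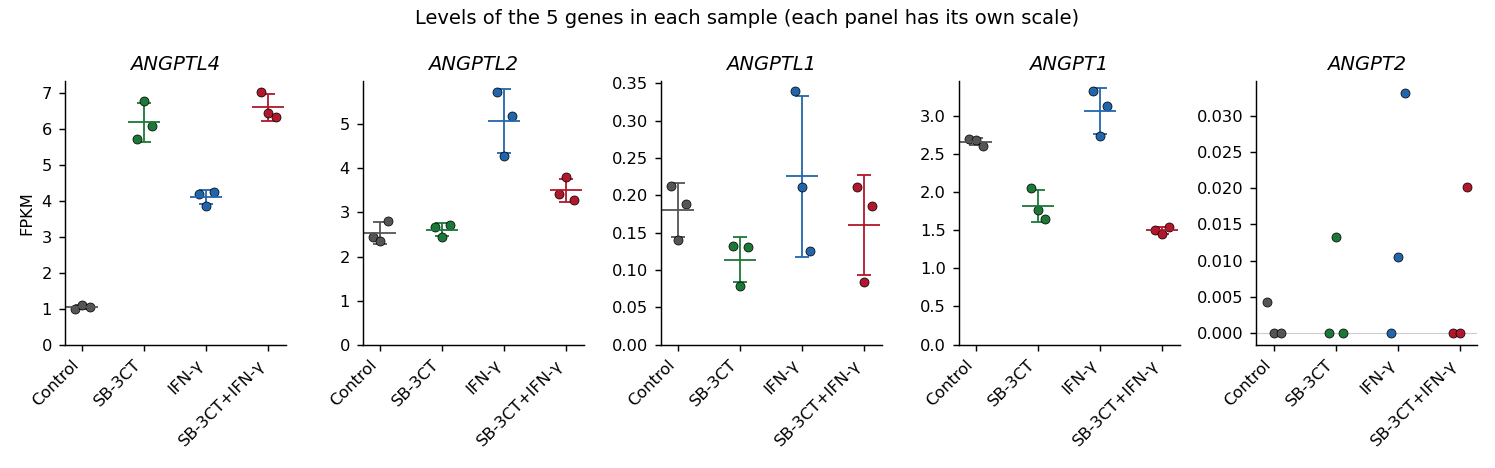
Level of each of the 5 family members in FPKM (vertical axis) in every sample of the 4 groups (horizontal axis, 3 points each), with the group mean and SD as bars, except for ANGPT2, which is at 0 in most samples. Each panel has its own scale. ANGPTL4 runs from 0.994 to 7.03 FPKM, while ANGPT2 stays at or below 0.0332 FPKM.

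ANGPT1, the activating ligand of TIE2, moved the other way with SB-3CT. Its level was 2.69, 2.68 and 2.61 FPKM in the controls and 2.05, 1.77 and 1.64 with SB-3CT. With IFN-γ it was 3.32, 2.73 and 3.13 FPKM, and with both agents 1.502, 1.45 and 1.55. The 4 groups did not overlap with each other, and their means were 2.66 ± 0.0448, 1.82 ± 0.212, 3.06 ± 0.300 and 1.501 ± 0.0462 FPKM (SD, n = 3) for control, SB-3CT, IFN-γ and both. From low to high the order was both, SB-3CT, control and IFN-γ. This holds for unscaled levels. Scaled by the median ratio, SB-3CT (1.59 to 1.91 FPKM) and both (1.65 to 1.78 FPKM) overlapped, with means of 1.74 and 1.71 FPKM.

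SB-3CT against control is the comparison in which ANGPT1 was tested, and the gene fell to 0.684 of the control mean. On the log2(FPKM + 1) scale the change was -0.38 ± 0.08 (SE; 95% interval -0.57 to -0.18; limma, adjusted p = 0.0317). The call was lost without any single control or without SB-3CT replicate 2 or 3 (5 of 6 fits, limma, adjusted p of 0.0975 to 0.109) and was kept at 0.0157 without SB-3CT replicate 1. It was also lost with the replicate number as a block (adjusted p = 0.0622) and when FPKM was tested gene by gene with equal variances (adjusted p = 0.0638). In this comparison 1 of 4 members tested was called, the lower one, and 5.37% of all genes were called higher and 6.87% lower (12.2% in either direction). Over all genes the 602 calls became 912 without SB-3CT replicate 1 and 73 to 88 without any other single sample.

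As a description, ANGPT1 with both agents was 0.490 of the IFN-γ level, a change of -0.70 on the log2(FPKM + 1) scale, and this fall is the value for which it was named. IFN-γ alone gave 0.15 on that scale. The change of IFN-γ added to SB-3CT was -0.17, and -0.02 after scaling by the median ratio. The difference of the SB-3CT changes with and without IFN-γ was -0.32 (with minus without), with no test.

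ANGPTL2 was highest with IFN-γ alone. Its level was 2.45, 2.34 and 2.81 FPKM in the controls, and 2.67, 2.44 and 2.71 with SB-3CT. With IFN-γ it was 5.74, 4.29 and 5.19 FPKM, and with both agents 3.42, 3.80 and 3.29. The controls and the SB-3CT samples overlapped, the samples with both agents lay above them, and the IFN-γ samples lay above all others. The means were 2.53 ± 0.243, 2.61 ± 0.144, 5.07 ± 0.734 and 3.50 ± 0.266 FPKM (SD, n = 3) for control, SB-3CT, IFN-γ and both.

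The rise of ANGPTL2 with IFN-γ was 2.00-fold in mean FPKM, and 0.78 ± 0.11 on the log2(FPKM + 1) scale (SE; 95% interval 0.51 to 1.04; limma, adjusted p = 0.00547). Of 3 members tested in this comparison, ANGPTL2 alone was called, where 8.46% of all genes were called higher and 11% lower (19.5% in either direction). SB-3CT alone gave a change of 0.03 with a 95% interval of -0.17 to 0.23 (limma, adjusted p = 0.843). With SB-3CT present, IFN-γ raised ANGPTL2 by 0.32 ± 0.07 (SE; limma, adjusted p = 0.0174), in a comparison in which 1 of 3 members tested was called and 7.85% of all genes were called higher and 32.7% lower (40.5% in either direction). With median-ratio scaling or quantile normalization of the samples the change was 0.51 (limma, adjusted p = 0.00412 and 0.00511 in that order). The call was lost with the replicate block (adjusted p = 0.0777) and without SB-3CT+IFN-γ replicate 2 (adjusted p = 0.0572).

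With SB-3CT added to IFN-γ, ANGPTL2 changed by -0.43 ± 0.11 on the log2(FPKM + 1) scale (SE; 95% interval -0.68 to -0.17; limma, adjusted p = 0.0196). The median change of genes with a mean of at least 1 FPKM was -0.20 in this comparison. After scaling by the median ratio the change of ANGPTL2 was -0.23 (limma, adjusted p = 0.0802), and after quantile normalization -0.12 (limma, adjusted p = 0.325), so the call was lost under both. It was also lost without replicate 1 or 3 of either group (4 of 6 fits, limma, adjusted p of 0.0661 to 0.0808) and in the equal-variance test on FPKM (adjusted p = 0.0766). The difference of the SB-3CT changes with and without IFN-γ was -0.46 ± 0.14 (SE; limma, adjusted p = 0.0336), the 1 call among 3 members tested, where 4.74% of all genes were called higher and 17.6% lower (22.3% in either direction), and was lost after scaling by the median ratio (-0.29, adjusted p = 0.115).

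**Figure D2:**
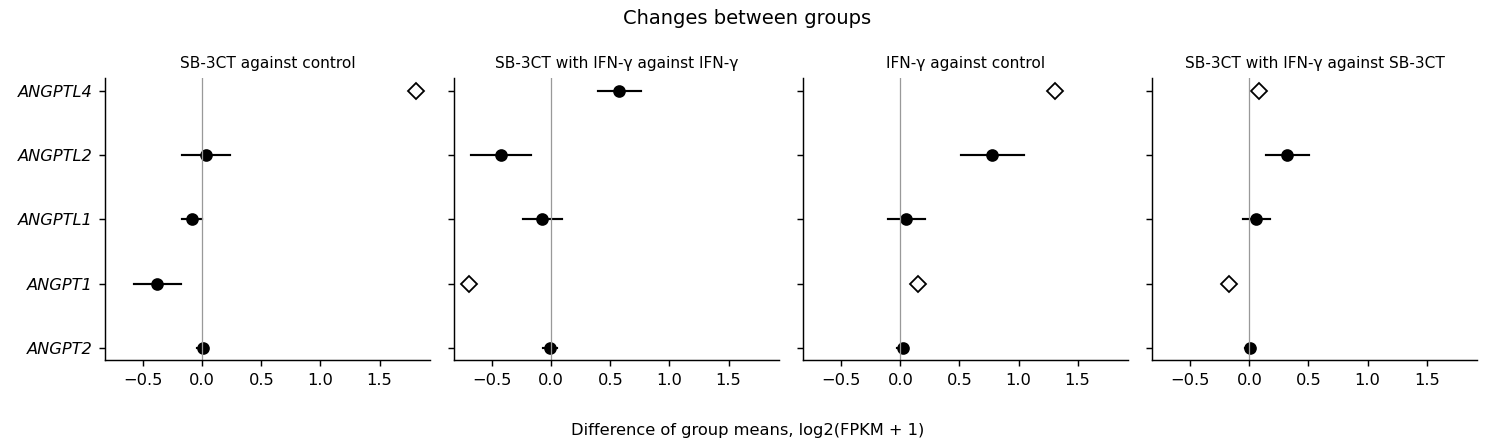
Change of the 5 members on the log2(FPKM + 1) scale in each comparison, with 95% intervals drawn where the change was tested (filled points) and none where it is only described (open diamonds). The change of ANGPTL4 with SB-3CT alone, 1.80, is the highest of the members, and that of ANGPTL2 with SB-3CT alone, 0.03, has an interval that includes 0.

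ANGPTL1 and ANGPT2 were low in every sample. ANGPTL1 ranged from 0.0791 to 0.340 FPKM, with means of 0.180 in the controls, 0.114 with SB-3CT, 0.226 with IFN-γ and 0.160 with both. Its change with SB-3CT alone was -0.08 on the log2(FPKM + 1) scale (95% interval -0.17 to 0.00; limma, adjusted p = 0.172), with no overlap between the groups, as for 33.9% of all genes, and no comparison called it (limma, adjusted p of 0.172 to 0.974). ANGPT2, the ligand of endothelial cells, was above 0 in 5 of 12 samples and reached at most 0.0332 FPKM. At these levels of ANGPT2 its changes are not detectable, and no comparison called ANGPT2 (limma, adjusted p of 0.562 to 0.915).

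Counting groups that did not overlap, 3 of 5 members were apart in SB-3CT with IFN-γ against IFN-γ, 3 in SB-3CT against control, 3 in IFN-γ against control and 2 in SB-3CT with IFN-γ against SB-3CT. Across all genes the shares were 49%, 33.9%, 36.9% and 51.7%, and the members include 2 that were chosen for such changes.

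The table holds 4 other family symbols, ANGPT4, ANGPTL5, ANGPTL6 and ANGPTL7, all under 1 FPKM. ANGPTL6, named after its values were seen, had mean levels of 0.563, 0.265, 0.191 and 0.351 FPKM in control, SB-3CT, IFN-γ and both. It fell by 0.30 on the log2(FPKM + 1) scale with SB-3CT (limma, adjusted p = 0.0291) and by 0.39 with IFN-γ (limma, adjusted p = 0.0222). The first call was lost without any single control or SB-3CT replicate 2 or 3 (adjusted p of 0.0613 to 0.118), and the second without control replicate 1 or 3 or IFN-γ replicate 1 or 2 (adjusted p of 0.0680 to 0.0741). The second was also lost with the replicate block (adjusted p = 0.0541), and both were lost in the equal-variance test on FPKM (adjusted p = 0.124 and 0.0897).

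Genes of the pathways around the family were taken from 4 hand-written lists by symbol. In SB-3CT with IFN-γ against IFN-γ, PPAR-responsive lipid genes (35 present) had 3 higher and 12 lower, near the shares of 6.41% and 31.5% over all genes. Once samples were scaled by the median ratio these counts were 7 and 5, where 763 of all 4918 genes were called higher and 811 lower. Their median change was -0.07 and that of all genes -0.09. Higher were FABP5, a fatty acid carrier (0.70 ± 0.07, SE), and ECI2 and ECI1, isomerases of fatty acid oxidation (0.38 and 0.34). Lower were ACSL4 and ACSL3, which activate fatty acids (-0.66 and -0.64), and catalase CAT (-0.57). In SB-3CT against control 3 were higher and 5 lower (5.37% and 6.87% of all genes), with ACSL3 at -0.72 and FABP5 at 0.19 (limma, adjusted p = 0.0529).

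HIF-responsive genes (24 present) had 1 higher and 10 lower in the same comparison, against 6.41% and 31.5% of all genes, with a median change of -0.12. After scaling the counts were 3 and 5, where 763 of all 4918 genes were called higher and 811 lower. FAM162A, a mitochondrial protein, rose by 0.51, from 49.2 to 70.3 FPKM in its group means, which stayed below the 80.4 FPKM of the controls. AK4, an adenylate kinase, BNIP3L, a mitophagy receptor, and CITED2, a co-factor that limits HIF activity, changed by -0.52, -0.50 and -0.49. The call of BNIP3L was lost after quantile normalization. With SB-3CT alone 1 was higher and 3 lower (5.37% and 6.87% of all genes). After scaling 3 were higher and 3 lower in that comparison, where 343 and 339 of all 4918 genes were called. FAM162A changed by -0.26 with SB-3CT alone (limma, adjusted p = 0.0171), a call lost without any single control or SB-3CT replicate 2 or 3 (adjusted p of 0.0535 to 0.0781) and in the equal-variance test on FPKM (adjusted p = 0.0574).

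Secreted and membrane angiogenesis genes (46 present) had 2 higher and 15 lower, near the shares of 6.41% and 31.5% over all genes, with a median change of -0.05. After scaling the counts were 5 and 10, where 763 of all 4918 genes were called higher and 811 lower. The chemokine CCL2, which rose by 0.55, went from 13.6 to 20.4 FPKM in its group means, a call lost in the equal-variance test on FPKM (adjusted p = 0.0577). CXCL8 rose by 0.47, from 10.2 to 14.6 FPKM in its group means, which stayed below the 22.7 FPKM of the controls. F2R, the thrombin receptor, fell by 1.00, AMOT, an angiostatin-binding protein, by 0.75, and EFNB2, an ephrin ligand of vessels, by 0.65. With SB-3CT alone 3 were higher and 5 lower (5.37% and 6.87% of all genes), and F2R changed by -0.43 (limma, adjusted p = 0.00973), a call lost without any single control or SB-3CT replicate 3 (adjusted p of 0.0518 to 0.0613) and in the equal-variance test on FPKM (adjusted p = 0.0574). On the lipoprotein lipase axis, 5 genes were present. In SB-3CT with IFN-γ against IFN-γ, 1 was higher, APOE (0.47), and 1 lower, APOA5 (-0.10), against 6.41% and 31.5% of all genes. APOA5 was under 0.2 FPKM in every group. After scaling 2 were higher and 0 lower, where 763 and 811 of all 4918 genes were called. APOE changed by 0.15 with SB-3CT alone (limma, adjusted p = 0.272).

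**Figure D3:**
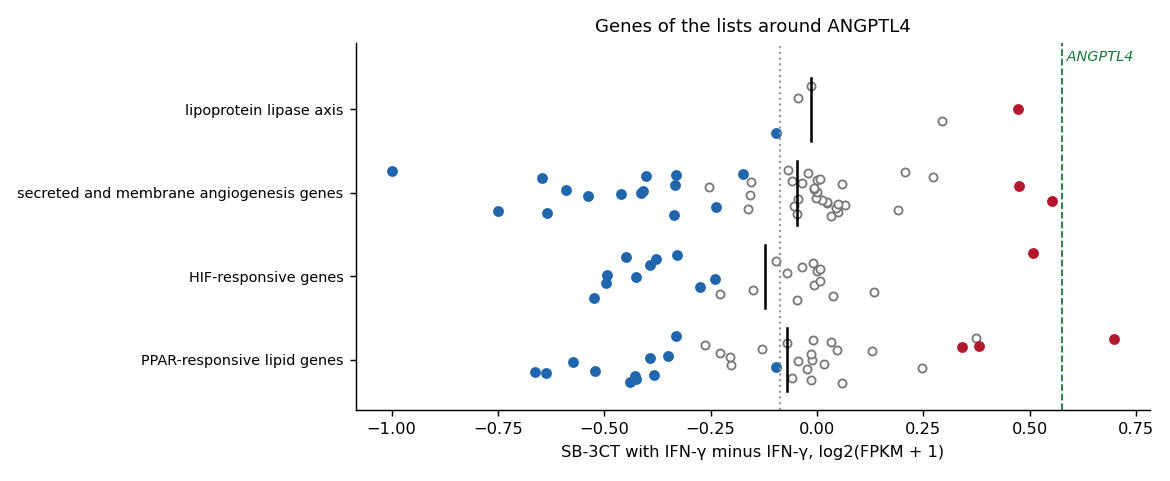
Change of the genes in each list on the log2(FPKM + 1) scale in SB-3CT with IFN-γ against IFN-γ, one point per gene, filled red where called higher, filled blue where called lower and open where not called. Black bars are list medians, the dotted line is the median of all genes, and the dashed line is ANGPTL4 at 0.57, above which only FABP5 (0.70) lies.

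The genes whose profile over the 12 samples was nearest to ANGPTL4 (root mean square difference of log2(FPKM + 1) after each gene's control mean was subtracted, among 3176 genes with a mean of at least 1 FPKM) were CHAC1, a glutathione-degrading enzyme (0.44), ATF3, a stress-induced transcription factor (0.54), DNPEP (0.74), ANXA2R (0.74) and CBR3 (0.74). CHAC1 changed by 1.17 with SB-3CT, 0.88 with IFN-γ and 1.52 with both, where ANGPTL4 changed by 1.80, 1.31 and 1.89. ATF3 changed by 0.79, 1.55 and 1.61. For ANGPT1 the nearest were AASS (0.05), CLCN3 (0.06), ANKIB1 (0.07), CHD9 (0.07) and API5 (0.07). AASS changed by -0.39 with SB-3CT, 0.10 with IFN-γ and -0.60 with both, where ANGPT1 changed by -0.38, 0.15 and -0.55. ANGPT2 was below 1 FPKM, so no genes were compared with it.

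**Figure D4:**
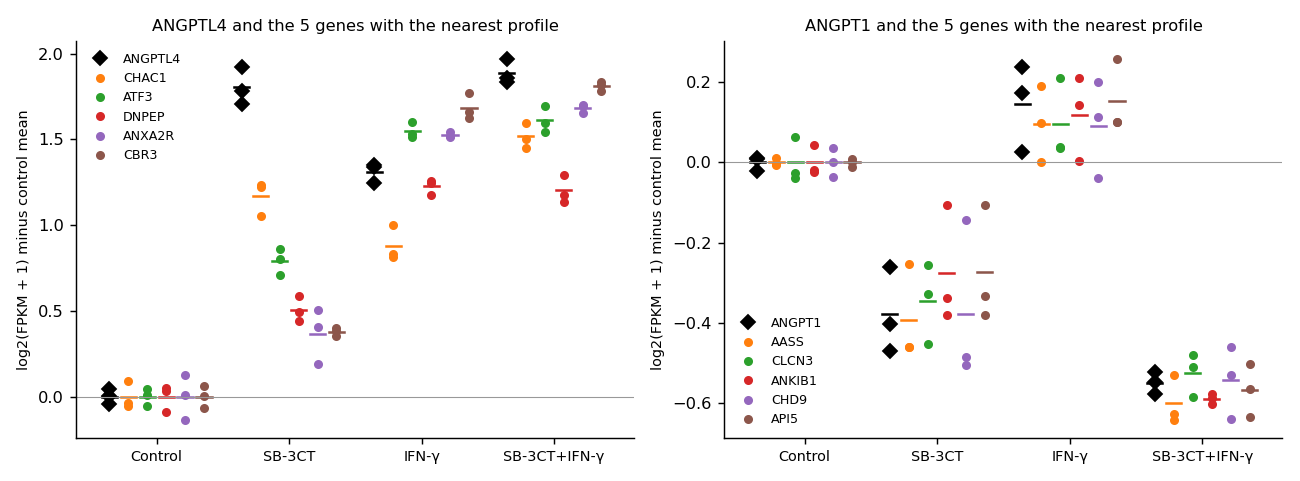
Level on the log2(FPKM + 1) scale, minus each gene's own control mean, for ANGPTL4 (left) and ANGPT1 (right) and the 5 genes nearest to each, with 3 points per group and a bar for the mean. The root mean square difference from ANGPT1 is 0.05 to 0.07 for its nearest genes, and that from ANGPTL4 is 0.44 to 0.74. It was taken on unscaled values and depends on the size of the changes, which were smaller for ANGPT1. These ranges therefore do not show which member has the closer likeness.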

How the data were processed

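RNA from 12 samples of A375 cells was sequenced. Per the submitters' processing notes, reads were aligned with HISAT2 2.0.5 to hg19 and expression was estimated with StringTie 1.3.3. The annotation and the strand setting are not given in the sources used here. The deposited values were on the log2 scale and fit log2(FPKM + 1). The planned tests assumed FPKM on a linear scale, so only the logarithm was omitted, and FPKM was taken as 2 to the power of the value minus 1. The table holds 4918 genes, and 0 columns of values per sample were unused. The number of reads is unknown and no counting error can be given. Relative depth came from the steps between FPKM values under 0.15.

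Tests used limma 3.58.1 under R 4.3.3, without pairing and with a mean-variance trend in eBayes, on the 3 + 3 samples of each comparison, or on all 12 samples for the difference. P-values were adjusted by the Benjamini-Hochberg method over 4918 genes and called under 0.05. Fold changes on the log2(FPKM + 1) scale understate the change of low genes. The members, the lists and the tests were chosen with earlier results of these data known. ANGPTL4 was tested only in SB-3CT with IFN-γ against IFN-γ and ANGPT1 only in SB-3CT against control, since the other contrasts chose them or share samples with those that did. Genes named from a list were the 3 largest rises and 3 largest falls past the threshold with a mean of at least 1 FPKM in SB-3CT with IFN-γ against IFN-γ. APOA5, below that mean, was named after its values were seen, as the only lower gene of its list. The functions were tested on simulated data. Replicate numbers did not pair the samples. Alternatives were a pseudocount of 0.1, a minimum mean of 1 FPKM, median-ratio scaling, quantile normalization, all 4 groups in one fit, a replicate block, each sample left out, eBayes without trend, equal-variance tests on FPKM, and calls at a fold over 1.5 with unadjusted p under 0.05.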

Additional observations from a re-analysis of the deposited data

Results flagged for a closer look

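The SB-3CT change of ANGPTL2 differed between cells with and without IFN-γ, by -0.46 on the log2(FPKM + 1) scale (with minus without; interaction in limma, adjusted p = 0.0336). ANGPTL2 changed by 0.03 with SB-3CT alone and by -0.43 with IFN-γ present. The call was lost in 8 of the 12 fits that left out 1 sample (control replicate 1 or 2, or replicate 1 or 3 of any other group), and all 12 values lay from -0.55 to -0.38. Median-ratio scaling (-0.29, limma, adjusted p = 0.115) and quantile normalization (-0.25, limma, adjusted p = 0.160) also removed the call.

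The SB-3CT change of ANGPTL6, a low gene, differed by 0.49 on that scale (with minus without; interaction in limma, adjusted p = 0.00759). It changed by -0.30 with SB-3CT alone and by 0.19 with IFN-γ present (limma, adjusted p = 0.0562), and its group means were all under 0.6 FPKM. Groups of 3 samples are too small for a test of single outlying samples.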

How the results depend on the processing

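The tested rise of ANGPTL4 with SB-3CT added to IFN-γ and that of ANGPTL2 with IFN-γ kept their direction and an adjusted p under 0.05 in every alternative run. For calls at a fold over 1.5 with unadjusted p under 0.05, the fold was read from the change in log2(FPKM + 1). Read so, ANGPTL4 (0.57) fell short with SB-3CT added to IFN-γ, although its mean FPKM rose 1.61-fold there. The changes of ANGPTL2 (-0.43 against IFN-γ, 0.32 against SB-3CT and -0.46 for the difference) and ANGPT1 (-0.38) also fell short. Genes called this way numbered 367 in SB-3CT with IFN-γ against IFN-γ, 49 in SB-3CT against control and 234 in IFN-γ against control. They numbered 278 in SB-3CT with IFN-γ against SB-3CT and 161 for the difference. Equal-variance tests on FPKM called 1161, 74 and 604 genes in the first 3, and as the log2 ratio of mean FPKM gave -1.03 and -0.28 for ANGPT1 against IFN-γ and against SB-3CT, -0.55 for ANGPT1 and 2.55 for ANGPTL4 with SB-3CT alone, 1.96 for ANGPTL4 with IFN-γ alone, and -0.53 for ANGPTL2 against IFN-γ (adjusted p = 0.0766). With a pseudocount of 0.1, ANGPT1 was at -0.98 against IFN-γ, -0.26 against SB-3CT and -0.45 for the difference, and ANGPTL4 at 2.44 with SB-3CT, 1.86 with IFN-γ and -1.77 for the difference. Median-ratio scaling gave -0.54, -0.016 and -0.19 for ANGPT1 in the same order, 0.30 for ANGPTL4 against SB-3CT and -1.02 for its difference, and -0.23 and -0.29 for ANGPTL2 against IFN-γ and for its difference. It called 1204 genes in SB-3CT with IFN-γ against SB-3CT and 657 for the difference, and moved levels to 2.497 (ANGPT1, control), 1.71 (ANGPT1, both), 3.996 (ANGPTL2, both), 0.990 (ANGPTL4, control) and 7.53 FPKM (ANGPTL4, both). In SB-3CT with IFN-γ against IFN-γ it called 763 genes higher and 811 lower, where 315 and 1547 were called without it. Quantile normalization gave -0.43, -0.033 and -0.16 for ANGPT1, 0.27 and -0.996 for ANGPTL4, and -0.12 and -0.25 for ANGPTL2, and called 640 genes for the difference. With the replicate block, 259 genes were called in SB-3CT against control against 602 without, ANGPT1 (-0.38) lost its call there, as did ANGPTL2 (0.32) against SB-3CT, and the other calls of members were kept. ANGPTL6 lost its call with IFN-γ. Same-numbered samples correlated at -0.39 to 0.17 in their deviations, so the block carries no pairing from the labels. Leaving out 1 sample gave 1230 to 1977, 73 to 912, 562 to 982, 1507 to 1780 and 678 to 1450 called genes in the 5 comparisons (lowest without IFN-γ replicate 3 in the first, and 562 to 596 without any single control or IFN-γ replicate 3 in the third), -0.52 to -0.35, 0.27 to 0.35 and -0.55 to -0.38 for ANGPTL2 against IFN-γ, against SB-3CT and for the difference, -0.44 to -0.33 for ANGPT1 and -0.0066 to 0.087 for ANGPTL2 with SB-3CT alone. Directions that turned when 1 sample was left out belonged to genes with changes near 0: ANGPT2 (-0.021 to 0.0021 against IFN-γ, -0.0020 to 0.0075 with SB-3CT alone and -0.0064 to 0.0096 against SB-3CT), ANGPTL1 (-0.015 to 0.11 with IFN-γ and -0.053 to 0.072 for the difference) CXCL8 (-0.13 to 0.0088 with SB-3CT alone) and ANGPTL2 with SB-3CT alone, as given. The causes were not tested. With a minimum mean of 1 FPKM, ANGPT2, ANGPTL1 and ANGPTL6 could not be fitted, and equal-variance tests and the fit of all groups do not apply to the difference. Of 257 alternatives of the members' tested changes, 215 left the call and direction as they were, 31 lost a call and 11 turned the direction. Of 554 for the other named genes, 456 left both as they were, 82 lost a call, 14 gained one and 2 turned the direction.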
